A study of Mus musculus with 2 samples.

Results

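Early deuterosomal cells are the first stage at which a cell of the multiciliated lineage turns on the genes for making many centrioles. The deposited cell metadata gives each of them a cell cycle class, and cells called S, S/G2 or G2/M (the cycle classes here) were set against those called G0 or G1. There were 1113 early deuterosomal cells among 16401 cells in all, and 266 of them were in the cycle classes and 847 in G0 or G1. The cells came from 2 primary cultures of lateral ventricular wall, taken from newborn mice of age P0-P2, C57BL/6N for replicate 1 and C57BL/6J for replicate 2. No allele was altered and no agent was given in either. The cultures were grown to confluence, shaken overnight to remove other cells, and kept for 2 days without serum, which is known to start their differentiation into ependymal cells. Whole cultures were then dissociated with trypsin, labelled at the cell surface and made into libraries with 10x Genomics 3′ v3 chemistry. Whether litters, dates or sequencing runs differed between them is not in the labels, so the p-values below measure the spread between these sums of cells, which may be partly technical.

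Ependymal cells line the brain ventricles and each carries a tuft of motile cilia. Each cilium needs its own centriole as a base, and most of these centrioles are built on deuterosomes, structures scaffolded by the protein Deup1, after the kinase Plk4 starts their assembly. Proteins that drive mitosis in dividing cells, among them Cdk1, Plk1 and the anaphase-promoting complex (APC/C), are known to pace centriole building in these cells, which do not divide.

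The sources used here do not give how the classes and population names were assigned. Both may rest on the same transcripts, so a higher level of cell cycle genes in the cycle classes is a description of those classes and not separate evidence for them. The 8 deuterosomal markers (Deup1, Cdc20b, Ccno, Mcidas, Plk4, Ccdc78, Foxn4 and Myb) were detected on both sides. They summed to 2174 and 2455 CPM (UMIs scaled to a common total of UMIs per sum) in the cycle classes of replicates 1 and 2. The same sum was 1127 and 1230 CPM in G0 or G1, and 2398 and 2560 CPM in mid deuterosomal cells, the next stage. Pairs of values are given below in the order replicate 1, replicate 2.

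The cycle classes held 145 of 663 early deuterosomal cells in replicate 1 (21.9%, 95% exact Clopper-Pearson interval 18.8 to 25.2) and 121 of 450 in replicate 2 (26.9%, 22.8 to 31.2). Most of these cells were of class S, with 98 and 72 cells. Class S/G2 had 22 and 38 cells, which is 3.32% (2.09 to 4.98) and 8.44% (6.04 to 11.4) of early deuterosomal cells, and these intervals do not overlap. Class G2/M had 25 and 11 cells. G0 held 482 and 311 cells and G1 36 and 18. In mid deuterosomal cells the order was different, with S/G2 at 78.8% and 82.7% and S at 15.1% and 13.0%. Dissociation and the overnight shake can set such shares, and the intervals cover counting error only.

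**Figure D1:**
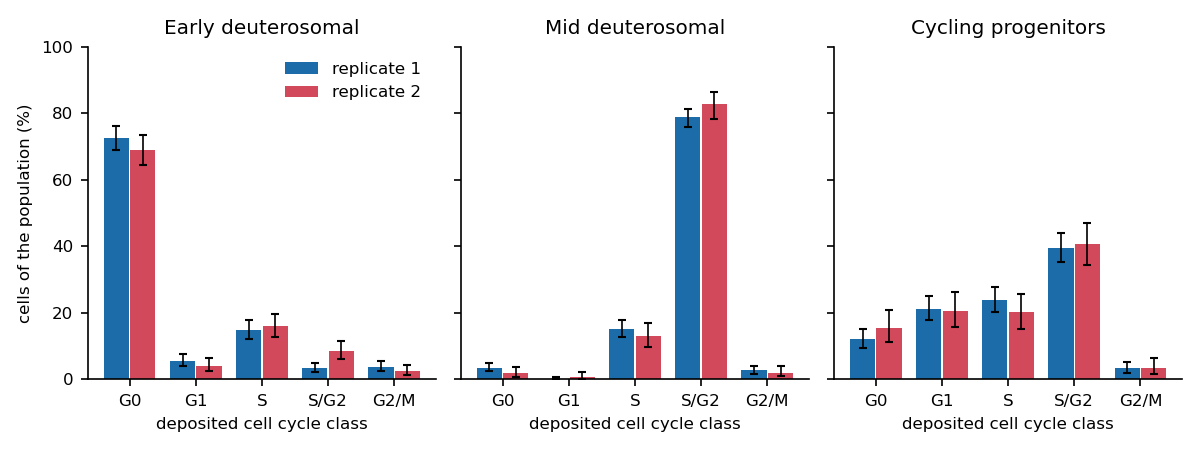
Share of cells (percent) in each cell cycle class, for early deuterosomal cells, mid deuterosomal cells and cycling progenitors, with 1 bar per library and exact 95% intervals as error bars. S is the commonest of the 3 cycle classes in early deuterosomal cells (14.8% and 16.0%), and S/G2 the commonest in mid deuterosomal cells (78.8% and 82.7%).

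The 2 sides were sequenced to a like depth. Cells of the cycle classes had a median of 11620 and 16293 UMIs, and cells of G0 or G1 had 11567.5 and 14125. The summed UMIs were 1924478 and 2195073 in the cycle classes and 7298475 and 5118732 in G0 or G1. After thinning to 5000 UMIs per cell, the median number of genes was 2444 and 2472 against 2401 and 2405.5. The median mitochondrial share was 3.47% and 5.27% against 4.13% and 5.74%. The libraries share 13 cell barcode sequences, 2 of them among early deuterosomal cells.

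Over all genes, 1532 of 15120 were higher in the cycle classes (10.1%) and 846 were lower (5.60%) in edgeR's quasi-likelihood test with Benjamini-Hochberg adjustment at 0.05. All 2378 of these genes had the same direction in both libraries. The balance of the calls depended on the fit. With only the 4 sums of this comparison in the fit, 2022 were higher and 1871 lower, so that the share of higher genes among the calls was 51.9% rather than 64.4%, and 2332 of the 2378 genes were called the same way. Leaving out the early deuterosomal sums of 1 library, with the other populations kept for the spread, reduced the counts to 573 higher and 167 lower without replicate 1 and to 393 and 78 without replicate 2. Leaving out 1 cell of replicate 1, described with Mki67 below, gave 1129 higher and 1175 lower. In such sums fewer cells that express a gene and less RNA per cell cannot be told apart.

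Genes of centriole amplification were higher in the cycle classes. Of 25 such genes 24 were higher, where 10.1% of all genes were, and 1, Ccdc78, did not pass the test. The median log2 fold change was 0.89 over the list against −0.02 over all genes. Deup1, the scaffold of the deuterosome, was at 748 and 722 CPM in the cycle classes and at 307 and 280 CPM in G0 or G1. Both libraries had the higher level in the cycle classes, and the sides did not overlap. The fold change was 2.59 (log2 1.38 ± 0.17 (SE, n = 2 libraries), adjusted p = 1.23e-05 in edgeR). The metadata names progenitors I and progenitors II apart from the cycling progenitors. Deup1 was at 33.3 and 27.1 CPM in progenitors II and at 1019 and 1080 CPM in mid deuterosomal cells. G0 or G1 cells thus already stood well above progenitors II. The gene lies on chromosome 9 (mm10 15559864 to 15627933, minus strand).

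Plk4, the kinase that starts centriole formation (chromosome 3, 40800019 to 40816883, plus strand), was at 320 and 358 CPM against 124 and 152 CPM. This is a 2.55-fold difference (log2 1.35 ± 0.16, adjusted p = 2.10e-06), and the level of the cycle classes was close to the 326 and 345 CPM of mid deuterosomal cells. Cep135, a component of the centriole's cartwheel base, was at 82.1 and 134 CPM against 30.8 and 38.9 CPM (log2 1.68 ± 0.13, adjusted p = 1.28e-09). Poc1a, a protein of the centriole wall, was at 23.9 and 24.1 CPM against 7.95 and 5.08 CPM (log2 1.92 ± 0.24, adjusted p = 1.27e-06). Poc1a was higher still in mid deuterosomal cells, at 71.6 and 54.3 CPM. Sass6 and Stil, which act with Plk4 in the cartwheel, had log2 fold changes of 1.38 ± 0.13 and 1.46 ± 0.20. In Deup1, Plk4, Cep135, Poc1a, Sass6 and Stil both sums of the cycle classes lay above both sums of G0 or G1.

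Ccdc78, which has been placed at deuterosomes, was the exception. It was at 1.56 and 1.37 CPM in the cycle classes, 2.74 and 1.17 CPM in G0 or G1, and 36.7 and 16.4 CPM in mid deuterosomal cells. Its sides overlapped at this stage (log2 −0.38 ± 0.78, adjusted p = 0.807), and it changed sign without replicate 1 (log2 0.26). It was lower than in mid deuterosomal cells (log2 −4.21 ± 0.44, adjusted p = 6.58e-08), a comparison that uses the same cycle class sums.

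Shares of cells with a UMI followed the levels. In cells thinned to 5000 UMIs, which left out 7 cells of the cycle classes and 28 of G0 or G1, Deup1 was found in 89.3% (82.9 to 93.9) and 94.1% (88.3 to 97.6) of cells of the cycle classes. In G0 or G1 it was found in 67.3% (62.9 to 71.4) and 60.8% (55.3 to 66.2). Without thinning these shares were 95.2% and 97.5% against 85.5% and 84.8%. Oligodendrocytes, which should lack Deup1, had it in 1.59% and 0% of thinned cells (1 of 63 and 0 of 35, exact upper limits 8.53% and 10.0%), at median depths of 8994.5 and 10979.5 UMIs, and microglia in 7.32% and 5.13%. Plk4 was found in 69.3% and 78.2% of thinned cells of the cycle classes against 39.6% and 40.4% in G0 or G1. Oligodendrocytes had Plk4 in 4.76% and 2.86% of thinned cells, and microglia in 12.9% and 10.3%. The shares of G0 or G1 cells with Deup1 or Plk4 were thus above this background and below those of the cycle classes.

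The centriole list kept 17 higher genes without replicate 1, 16 without replicate 2 and 19 without the 1 cell of replicate 1 described below. With class S alone on the side of the cycle classes it had 20 higher genes.

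**Figure D2:**
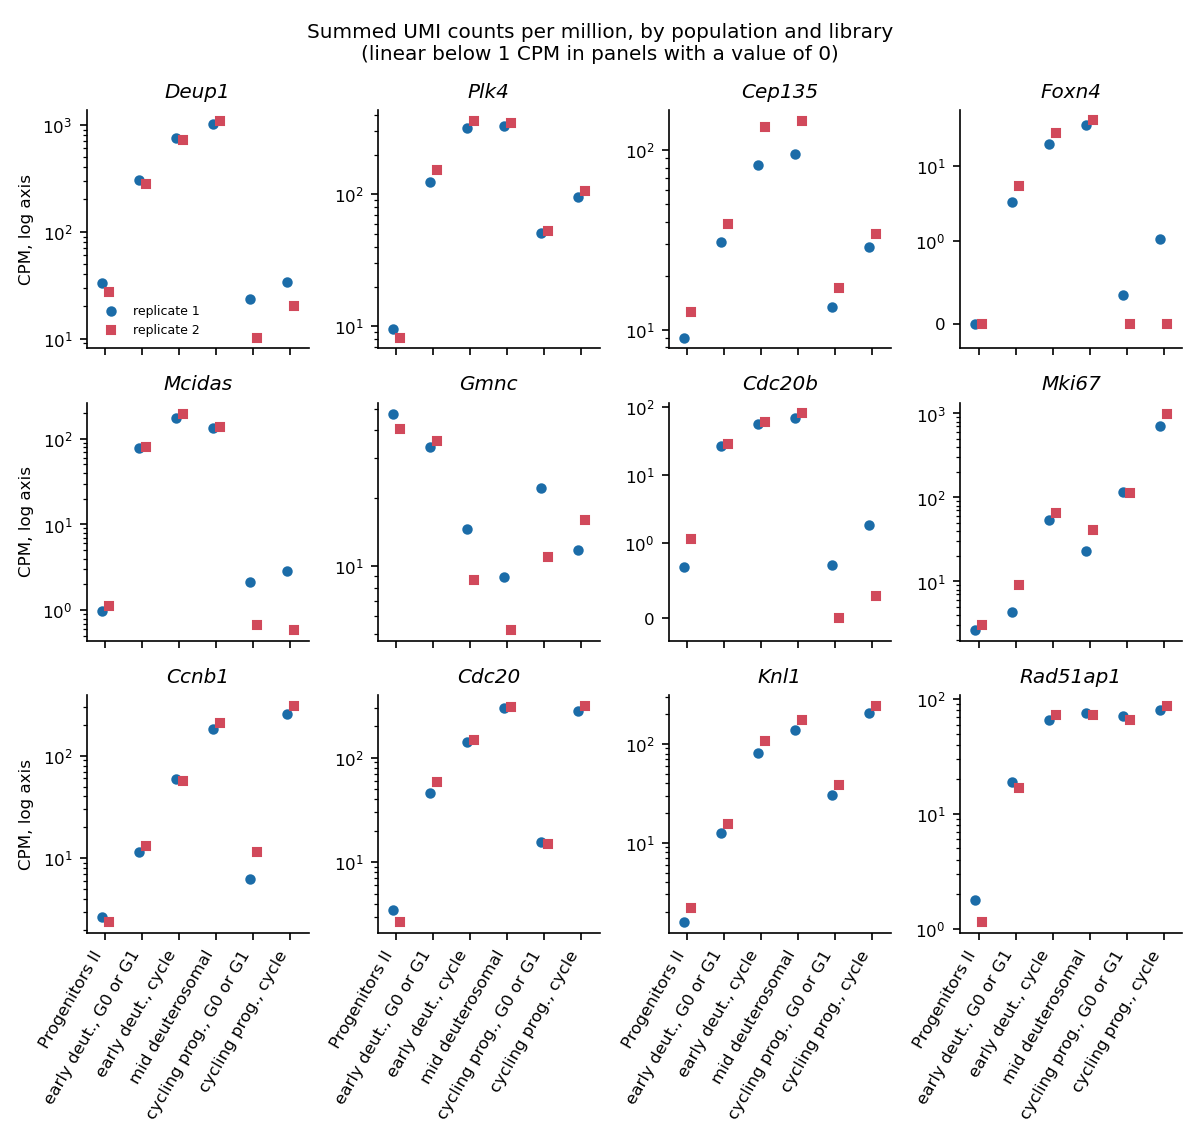
CPM of 12 genes in each library (1 point per library; the log axis is linear below 1 CPM where a panel holds a 0) in progenitors II, early deuterosomal cells of G0 or G1, early deuterosomal cells of the cycle classes, mid deuterosomal cells, and the 2 sides of cycling progenitors. Deup1, Plk4 and Cep135 step up from progenitors II to G0 or G1 and again to the cycle classes, while Gmnc steps down.

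Of 13 regulators of multiciliation 4 were higher (Foxn4, Mcidas, Cdc20b and Ccno), 1 was lower (Gmnc) and 8 did not pass the test. Among all genes tested 10.1% were higher and 5.60% lower, so 1 lower gene is near the share over all genes. Foxn4, a transcription factor of multiciliated cells, was at 19.7 and 28.2 CPM in the cycle classes and 3.29 and 5.47 CPM in G0 or G1 (5.85-fold, log2 2.55 ± 0.37, adjusted p = 2.07e-05). It had 0 UMIs in progenitors II and reached 35.5 and 41.0 CPM in mid deuterosomal cells. In thinned cells Foxn4 was found in 5.71% and 7.56% of cells of the cycle classes. In G0 or G1 it was found in 0.808% and 2.78% (4 of 495 and 9 of 324). Microglia had Foxn4 in 0.348% and 2.56% (1 of 287 and 1 of 39), and oligodendrocytes in 0 of 63 and 0 of 35. These are too few to tell whether the G0 or G1 shares lie above this background.

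Mcidas encodes multicilin, the coactivator that switches on centriole genes together with E2F factors. It was at 176 and 196 CPM against 78.8 and 80.3 CPM (2.43-fold, log2 1.28 ± 0.14, adjusted p = 2.20e-07). In mid deuterosomal cells it was lower again, at 133 and 135 CPM. Cdc20b, a relative of Cdc20 that works at deuterosomes, was at 55.6 and 59.2 CPM against 26.0 and 28.3 CPM (log2 1.12 ± 0.19, adjusted p = 7.68e-05).

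Gmnc encodes GEMC1, which acts upstream of multicilin. It went the other way, with 14.5 and 8.66 CPM in the cycle classes and 33.6 and 35.9 CPM in G0 or G1. The decrease was 2.91-fold (log2 −1.54 ± 0.29, adjusted p = 0.000506), and the level in G0 or G1 was nearer to that of progenitors II (47.5 and 40.6 CPM). The call was lost without replicate 2 (log2 −1.17, adjusted p = 0.115). Ccno, which is required for normal deuterosome and cilium numbers, was at 326 and 446 CPM against 194 and 263 CPM (log2 0.80 ± 0.23, adjusted p = 0.0235), and its call was lost when either library was left out (adjusted p = 0.252 and 0.328). Foxj1, the master regulator of motile cilia genes, was at 945 and 1552 CPM against 676 and 980 CPM and did not pass (log2 0.64 ± 0.33, adjusted p = 0.227), nor did Myb (log2 0.59 ± 0.23, adjusted p = 0.0996). Both passed with only the 4 sums in the fit (adjusted p = 6.18e-11 and 3.72e-09) and in thinned cells (adjusted p = 0.00228 and 0.00505).

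The promoters of these genes were read for the E2F letters TTCCCGC, on both strands, over the 250 bases before the start site (RefSeq, build GRCm38.p6). Of the 19 centriole amplification genes with a promoter entry 5 held the letters, Ccdc15, Cep152, Cntrl, Deup1 and Plk4 (26.3%), against 7.96% of genes tested and 4.38% of all 27025 genes with an entry. The share was 12.2% of all genes higher in the cycle classes and 9.36% of those lower, and the lower genes Cdca7, Bbc3 and E2f3 hold the letters too. A like share was found in replication licensing and firing (8 of 32, 25%) and in recombination and Fanconi repair genes (4 of 20, 20%). Kinetochore and cytokinesis genes had 11.1%, G2 and M phase genes 2.13%, and axoneme and radial glia genes 0%. The lists were chosen with results of these data known, so these shares are a description. A match is a run of letters and not a binding site. The stretches around the match are shown for genes that rose, with the match in capitals and up to 20 bases on either side. In Deup1 the match is in 1 of 2 promoter entries.
Plk4, chr3:40799811-40799857, plus strand: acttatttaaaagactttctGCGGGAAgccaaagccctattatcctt
Deup1, chr9:15627944-15627990, minus strand: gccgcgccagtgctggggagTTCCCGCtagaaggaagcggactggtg
Cdc20b, chr13:113035150-113035196, plus strand: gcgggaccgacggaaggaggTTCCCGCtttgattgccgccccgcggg
Fancb, chrX:164980400-164980446, plus strand: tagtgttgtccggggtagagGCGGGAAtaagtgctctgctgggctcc
GCGGGAA is TTCCCGC read on the other strand. Cep135, Poc1a, Mcidas and Foxn4, which rose as well, do not hold these letters in this window.

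Transcripts of the G2 and M phases were higher in the cycle classes, with larger median changes than those of centriole genes. Of the 54 genes on the list of G2 and M phases 41 were higher and 2 lower, with a median log2 fold change of 1.65, and of 41 kinetochore and cytokinesis genes 34 were higher, with a median of 1.62. Over all genes tested 10.1% were higher and 5.60% lower, so 2 lower genes of 54 do not exceed that share. The 2 lower genes were Psrc1, a spindle protein (log2 −1.92 ± 0.50, adjusted p = 0.00728), and Cbx5, a heterochromatin protein (log2 −0.30 ± 0.11, adjusted p = 0.0483). Both calls were lost without replicate 2 (adjusted p = 0.355 and 0.496), and that of Cbx5 also without replicate 1 (0.317). Some genes stand on both lists, as Aurkb does. The G2 and M list had 33 higher genes without replicate 1 and 27 without replicate 2, and the kinetochore list 27 and 21.

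Ccnb1, the cyclin that activates Cdk1 at mitosis, was at 58.7 and 56.0 CPM in the cycle classes and 11.5 and 13.1 CPM in G0 or G1 (4.82-fold, log2 2.27 ± 0.24, adjusted p = 4.29e-07). Its partner Cdk1 was at 556 and 598 CPM against 249 and 232 CPM (log2 1.32 ± 0.18, adjusted p = 4.84e-05). Plk1, the mitotic kinase, was at 30.7 and 39.2 CPM against 6.85 and 4.88 CPM (log2 2.58 ± 0.27, adjusted p = 1.36e-07). In all 3 genes the sides did not overlap and mid deuterosomal cells were higher still, with 183 and 207 CPM for Ccnb1, 641 and 649 CPM for Cdk1 and 100 and 107 CPM for Plk1. Cdc20, which activates the APC/C at anaphase, was at 141 and 147 CPM against 46.0 and 58.0 CPM (log2 1.53 ± 0.17, adjusted p = 4.49e-07).

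The kinetochore ties chromosomes to the spindle. Knl1, a kinetochore scaffold, was at 80.5 and 107 CPM against 12.6 and 15.4 CPM (6.90-fold, log2 2.79 ± 0.26, adjusted p = 4.49e-07). Cenpe, a kinetochore motor, had a log2 fold change of 2.51 ± 0.31 (adjusted p = 1.88e-05), and Cenpf one of 2.47 ± 0.28 (adjusted p = 2.13e-05). Cdca8, a subunit of the chromosomal passenger complex, was at 123 and 127 CPM against 29.6 and 31.6 CPM (log2 2.08 ± 0.37, adjusted p = 0.00110). Pbk, a mitotic kinase, had a log2 fold change of 2.53 ± 0.20 (adjusted p = 1.28e-09) and Cdca2, a chromatin-bound phosphatase partner, one of 3.49 ± 0.48 (adjusted p = 7.94e-06). The calls of these 6 genes held when either library was left out. In every one of them the G0 or G1 level already lay above that of progenitors II, which had 1.56 and 2.17 CPM of Knl1.

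Mki67, the usual marker of proliferating cells, was at 53.5 and 65.6 CPM in the cycle classes and 4.38 and 8.99 CPM in G0 or G1 (9.48-fold, log2 3.25 ± 0.63, adjusted p = 0.00238). Its call was lost without replicate 1 (adjusted p = 0.0773), without replicate 2 (0.0668) and with class S alone (log2 1.84, adjusted p = 0.236). Cycling progenitors of the cycle classes had 718 and 997 CPM. The UMIs of Mki67 were unevenly spread over cells. In replicate 1 a single S/G2 cell, of 36657 UMIs in all, held 64 of the 103 UMIs, and in replicate 2 the highest cell held 8 of 144. The 5 cells with most held 80.6% and 25.0% of Mki67 UMIs, against 12.4% and 13.6% for Deup1 and 14.3% and 14.1% for Plk4.

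The same cell of replicate 1 also had 53 of the 92 Ube2c UMIs and 114 of the 437 Cenpf UMIs, together with 19 UMIs of Deup1 and 15 of Plk4. Without it Mki67 and Ube2c were each at 20.7 CPM in the cycle classes of replicate 1, from 53.5 and 47.8 CPM. The log2 fold change was then 2.69 for Mki67 (adjusted p = 0.0186), 2.38 for Ube2c (0.0124, from 3.03 with it) and 2.21 for Cenpf (0.000176, from 2.47). The G2 and M list then had 40 higher genes and the kinetochore list 33. Each of these lists thus had 1 higher gene fewer.

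In thinned cells Mki67 was found in 7.86% (11 of 140) and 26.1% (31 of 119) of cells of the cycle classes, against 1.82% and 3.40% in G0 or G1 and 3.17% and 0% in oligodendrocytes. The oligodendrocyte shares rest on 2 of 63 and 0 of 35 cells, too few to tell whether the G0 or G1 shares lie above this background. In G0 or G1, 4 of 518 and 4 of 329 cells had at least 2 Mki67 UMIs, and the highest cell held 5 and 10. Without thinning, the share was 15.2% and 46.3% in the cycle classes and 4.44% and 8.81% in G0 or G1. Cells of the cycle classes with at least 2 Mki67 UMIs numbered 8 of 145 and 32 of 121, and 6 and 20 of them were of class S/G2. Of these, 8 and 31 had a Deup1 UMI and 8 and 32 a Plk4 UMI. Deup1 was at 806 and 703 CPM in them and at 742 and 732 CPM in the other cells of the cycle classes. The cells with Mki67 were deeper, with a median of 23961.5 and 21800.5 UMIs against 11536 and 14577. The sources used here do not give the handling of doublets, and their part in these cells was not tested. In cycling progenitors of the cycle classes 310 of 347 and 144 of 153 cells had at least 2 Mki67 UMIs, and Deup1 in those was at 34.8 and 18.6 CPM.

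The promoters of G2 and M phase genes were read for the letters TTTGAA, known as the cell cycle genes homology region (CHR), on both strands of the same window. Through this element the DREAM complex is known to repress mitotic genes in resting cells. The letters were found in 20 of 47 G2 and M phase genes with an entry (42.6%), against 12.8% of genes tested and 18.3% of all genes with an entry. The 1248 genes higher in the cycle classes that had an entry held them in 14.3%, and the 684 lower ones in 11.1%. Kinetochore and cytokinesis genes, which rose as well, held them in 6 of 36 (16.7%). In the other lists read the share ran from 5% (recombination and Fanconi repair) to 21.1% (radial glia and astroglia). The lists were chosen with results of these data known, so these shares are a description. These stretches are from named genes that rose, with TTTGAA, or TTCAAA where it lies on the other strand, in capitals.
Mki67, chr7:135716470-135716515, minus strand: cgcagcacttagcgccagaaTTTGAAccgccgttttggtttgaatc
Ccnb2, chr9:70421696-70421741, minus strand: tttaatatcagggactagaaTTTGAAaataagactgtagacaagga
Cdc20, chr4:118437344-118437381, minus strand: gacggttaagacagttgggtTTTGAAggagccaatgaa
Cdk1, chr10:69352913-69352947, minus strand: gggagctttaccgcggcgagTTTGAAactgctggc
Ube2c, chr2:164769880-164769925, plus strand: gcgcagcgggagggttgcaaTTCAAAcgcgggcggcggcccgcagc
Mki67 and Cdk1 each hold the letters at 2 places in the window, and 1 is shown. Ccnb1, Plk1, Knl1, Cenpe and Cenpf do not hold them in this window, and no reading of these letters bears on whether a factor binds there.

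Of 13 cyclins tested 4 were higher (Ccnb1, Ccnb2, Ccna2 and Ccno), 2 were lower (Ccng1 and Ccnd2) and 7 did not pass. Among all genes tested 10.1% were higher and 5.60% lower. Ccnb2 was at 13.5 and 20 CPM against 2.88 and 1.76 CPM (log2 2.83 ± 0.44, adjusted p = 7.09e-05). Ccna2, which partners CDKs in S and G2 of somatic cells, was at 7.27 and 8.66 CPM against 0.685 and 1.95 CPM (log2 2.73 ± 0.66, adjusted p = 0.00569) and rests on 14 and 19 UMIs. Without the 1 cell described with Mki67, replicate 1 had 7 UMIs of Ccna2 (3.71 CPM, log2 2.31, adjusted p = 0.0387). Its call was lost without replicate 1 (adjusted p = 0.140) and without replicate 2 (0.0737). With class S alone neither Ccnb2 (log2 0.85, adjusted p = 0.536) nor Ccna2 (log2 1.18, adjusted p = 0.542) passed.

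Ccng1, a p53 target, was at 36.4 and 42.4 CPM against 79.6 and 74.6 CPM (log2 −0.91 ± 0.19, adjusted p = 0.00118), and its call was lost without replicate 1 (adjusted p = 0.0916). Ccnd2, a D-type cyclin of G1, was at 81.1 and 87.0 CPM against 135 and 143 CPM (log2 −0.68 ± 0.21, adjusted p = 0.0389, lost at 0.304 and 0.345 when either library was left out). Ccne1, which with Cdk2 starts S phase, was at 15.6 and 23.2 CPM against 9.45 and 12.7 CPM and did not pass (log2 0.87 ± 0.33, adjusted p = 0.0677). It passed with class S alone (log2 1.10, adjusted p = 0.0381) and had the other sign with class S/G2 alone (log2 −0.23, adjusted p = 0.875). Ccna1, an A-type cyclin known mainly from the germ line, was at 74.3 and 58.3 CPM against 48.8 and 38.5 CPM (log2 0.64 ± 0.28, adjusted p = 0.147) and at 415 and 316 CPM in mid deuterosomal cells. Cdkn1a, the p21 inhibitor of CDKs, was at 292 and 246 CPM against 281 and 256 CPM, and its sides overlapped (log2 0.04 ± 0.22, adjusted p = 0.939).

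The APC/C list had 8 higher genes of 22 and the list of CDKs and their regulators 8 higher and 1 lower, Cdk6 (log2 −0.62 ± 0.15, adjusted p = 0.00367, lost at 0.494 without replicate 2). Among all genes tested 10.1% were higher and 5.60% lower. Fbxo5, an inhibitor of the APC/C that dividing cells use, stayed at 2.08 and 2.73 CPM against 3.29 and 1.95 CPM, where cycling progenitors of the cycle classes had 115 and 102 CPM. Its paralog Fbxo43, known from meiosis, was at 3.12 and 9.57 CPM against 3.43 and 2.54 CPM and at 27.4 and 21.4 CPM in mid deuterosomal cells. Neither passed the test (adjusted p = 0.957 and 0.133), and both had sides that overlapped.

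Genes of DNA replication moved less. Of 43 S phase genes 14 were higher and 2 lower, with a median log2 fold change of 0.47, and of 41 genes of replication licensing and firing 10 were higher and 1 lower, with a median of 0.40. Over all genes tested 10.1% were higher and 5.60% lower, so the lower genes of these lists do not exceed that share. They were Mcm6, a subunit of the replicative helicase, on both lists, and Cdca7. Mcm6 was at 10.9 and 9.11 CPM in the cycle classes and 24.0 and 23.6 CPM in G0 or G1, so the sides did not overlap (2.33-fold lower, log2 −1.22 ± 0.34, adjusted p = 0.0140). Its call was lost when either library was left out (adjusted p = 0.0830 and 0.192), and that of Cdca7 (log2 −1.48 ± 0.40, adjusted p = 0.00963) without replicate 2 (0.364). Mcm6 was at 146 and 164 CPM in cycling progenitors of the cycle classes. Dbf4, the activator of the replication kinase Cdc7, was at 66.0 and 69.2 CPM against 24.4 and 27.7 CPM (log2 1.43 ± 0.19, adjusted p = 2.63e-06). Without replicate 1 the S phase list had 5 higher genes and without replicate 2 it had 3, and the licensing list had 3 and 4.

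Recombination and Fanconi repair genes had 13 of 30 higher, where 10.1% of all genes were higher, with a median log2 fold change of 1.10. Rad51ap1, a DNA repair gene that stands on the S phase list as well, was at 66.5 and 72.4 CPM against 19.0 and 16.8 CPM (3.99-fold, log2 2.00 ± 0.22, adjusted p = 9.36e-07). Fancb, an X-linked subunit of the Fanconi core complex, was at 26.5 and 24.6 CPM against 5.75 and 4.69 CPM (4.97-fold, log2 2.31 ± 0.30, adjusted p = 2.96e-06). Both genes were above G0 or G1 in both libraries and kept their calls without either one. The list had 8 higher genes without replicate 1 and 5 without replicate 2.

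Of 24 histone genes tested 2 were higher, a share near the 10.1% of all genes, H2afz (2346 and 2088 CPM against 1095 and 958 CPM, log2 1.16 ± 0.16, adjusted p = 2.02e-05) and H2afx (734 and 774 CPM against 308 and 302 CPM, log2 1.35 ± 0.12, adjusted p = 1.33e-08). Both lie outside the histone clusters and give polyadenylated RNA. Most transcripts of the clustered genes lack a poly(A) tail, which the 3′ kit needs, so the kit can undercount them. Not all were low, as the levels of Hist1h1b given further below show. In edgeR the other 22 genes of the list did not pass, and the median over the list was −0.14. DESeq2 also called Hist1h3c higher (adjusted p = 0.0496), a gene with 1 and 2 UMIs in the cycle classes and 0 in G0 or G1.

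Most genes of cilia did not pass the test. Of 50 axoneme genes 7 were higher, a share near the 10.1% of all genes, with a median log2 fold change of 0.35, of 31 genes of intraflagellar transport and the BBSome 13 with a median of 0.48, and of 18 transition zone genes 4 with a median of 0.33. Zmynd10, a factor for dynein arm assembly, was at 211 and 189 CPM against 99.5 and 89.9 CPM (log2 1.13 ± 0.16, adjusted p = 3.21e-05). Ttc21b, of the retrograde transport complex, was at 24.4 and 25.5 CPM against 11.2 and 11.5 CPM (log2 1.19 ± 0.19, adjusted p = 5.17e-05). Without replicate 1 the 3 lists had 2, 7 and 0 higher genes, and without replicate 2 they had 1, 2 and 0. With only the 4 sums in the fit the axoneme list had 26 higher and 5 lower genes. The heat shock protein gene Hsp90aa1 was at 6245 and 8985 CPM against 3469 and 4170 CPM (log2 1.03 ± 0.15, adjusted p = 4.34e-05, lost at 0.157 without replicate 2).

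**Figure D3:**
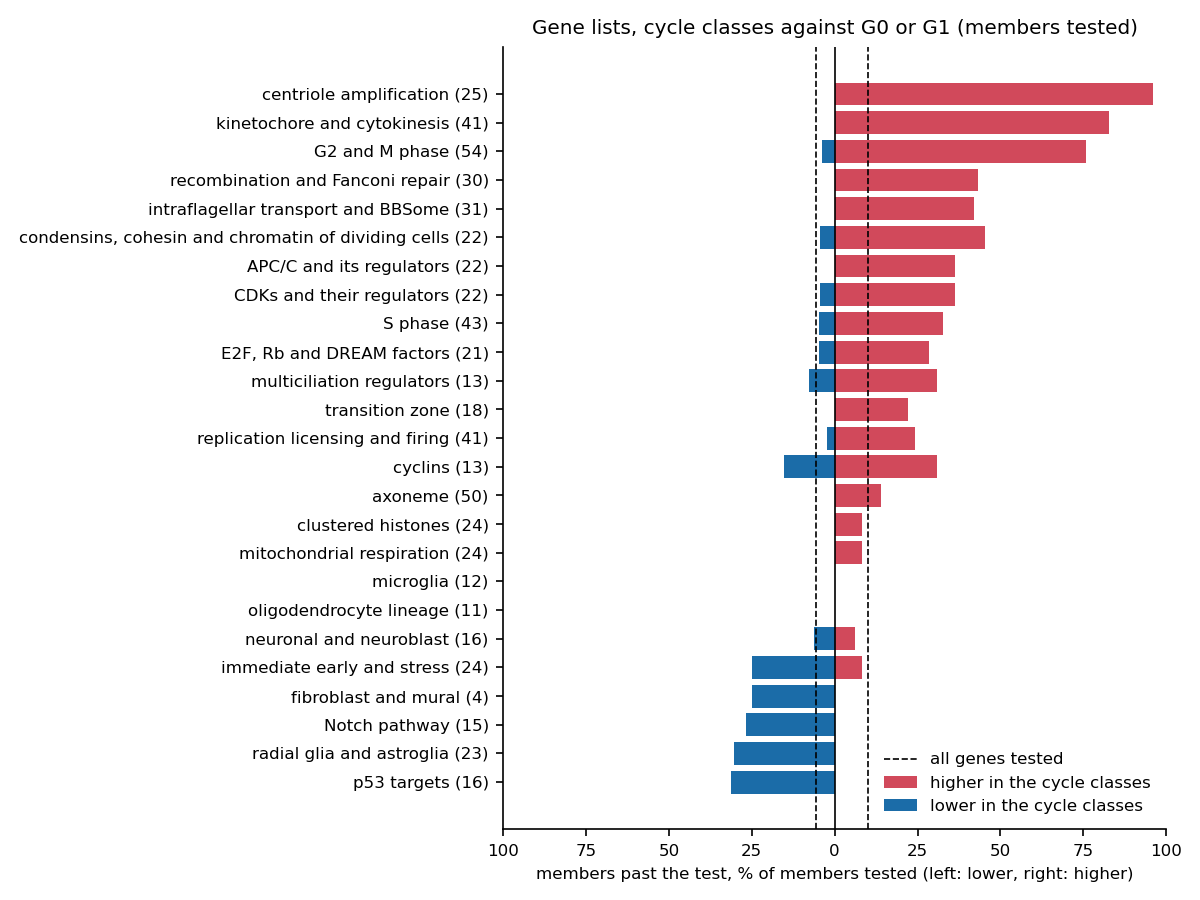
Share of the members tested of each gene list (percent) that were higher or lower in the cycle classes of early deuterosomal cells than in G0 or G1 at an adjusted p below 0.05, with the same shares of all genes tested as dashed lines (10.1% higher, 5.60% lower). Centriole amplification (24 of 25), kinetochore and cytokinesis (34 of 41) and G2 and M phase (41 of 54) have the highest shares.

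Genes lower in the cycle classes included several that progenitors express. Amotl1, a junction protein of the Hippo pathway, was at 18.2 and 20 CPM in the cycle classes and 57.4 and 62.5 CPM in G0 or G1 (3.03-fold lower, log2 −1.60 ± 0.23, adjusted p = 1.97e-05). It was at 89.2 and 112 CPM in progenitors II and 9.79 and 9.70 CPM in mid deuterosomal cells, and its call held when either library was left out. The neuropeptide gene Npvf was at 8.31 and 23.2 CPM against 84.0 and 221 CPM (log2 −3.18 ± 0.73, adjusted p = 0.00786). Ccn2, a Yap target (log2 −2.06 ± 0.50), the metalloprotease inhibitor Timp3 (−1.95 ± 0.43), the cytokine Cntf (−1.73 ± 0.40), Igfbp5 (−1.63 ± 0.50), Hopx (−1.62 ± 0.41) and the transporter Slco1a4 (−1.54 ± 0.27) complete the 8 largest decreases among genes of at least 5 in mean log2 CPM. Their adjusted p-values ran from 0.000813 for Slco1a4 to 0.0371 for Igfbp5. For Npvf, Ccn2, Timp3, Cntf, Igfbp5 and Hopx the call was lost when either library was left out, with adjusted p from 0.0948 (Hopx without replicate 1) to 0.495 (Igfbp5 without replicate 2), and that of Slco1a4 without replicate 1 (0.145).

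Radial glia and astroglia genes had 7 lower of 23 and a median log2 fold change of −0.49, where 5.60% of all genes were lower. Id3, an inhibitor of differentiation, was at 70.7 and 34.2 CPM against 148 and 105 CPM (log2 −1.25 ± 0.33, adjusted p = 0.0182, lost at 0.174 and 0.405 when either library was left out). Glul, the glutamine synthetase of astroglia, was at 74.8 and 63.3 CPM against 152 and 131 CPM (log2 −0.99 ± 0.18, adjusted p = 0.000294). The count was 1 when either library was left out and 20 with only the 4 sums in the fit. The 4 progenitor markers Slc1a3, Id3, Gfap and Vim summed to 7033 and 7569 CPM in the cycle classes, 8801 and 9582 CPM in G0 or G1 and 12520 and 13308 CPM in progenitors I.

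Of 15 Notch pathway genes 4 were lower, the receptors Notch1 and Notch2, the target Hey1 and the DNA-binding factor Rbpj. For this and the next 2 lists the shares over all genes were 10.1% higher and 5.60% lower. Notch1 was at 34.3 and 36.9 CPM against 57.5 and 67.8 CPM (log2 −0.77 ± 0.18, adjusted p = 0.00320, lost at 0.0735 and 0.199 when either library was left out). Of 16 p53 targets 5 were lower (Ccng1, Phlda3, Bax, Bbc3 and Sesn2), with a median of −0.44. Immediate early and stress genes had 2 higher and 6 of 24 lower, among them the phosphatase Dusp1 (log2 −1.25 ± 0.29, adjusted p = 0.00634, lost at 0.117 and 0.154 when either library was left out). Such genes are known to respond to tissue dissociation. Dusp1 was at 19.7 and 67.0 CPM against 58.2 and 148 CPM, so that the cycle classes of replicate 2 lay above G0 or G1 of replicate 1. Without either library the counts of lower genes fell to 0 in the Notch and immediate early lists, and to 0 and 1 among p53 targets.

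Markers of other cell types were low on both sides. The 4 microglia markers summed to 3.12 and 2.28 CPM in the cycle classes and 2.06 and 3.13 CPM in G0 or G1, against 5339 and 6712 CPM in microglia. The 4 oligodendrocyte markers summed to 2.60 and 3.19 against 4.80 and 8.01 CPM, the 5 markers of oligodendrocyte precursors to 22.9 and 36.0 against 46.7 and 54.7 CPM, and the 4 fibroblast markers to 0 and 0.911 against 0.685 and 1.95 CPM. Pdgfra was at 0 in both cycle class sums and in the G0 or G1 sum of replicate 2. The 4 neuroblast markers summed to 9.87 and 11.8 against 8.22 and 5.08 CPM, and all of it in the cycle classes was Dlx2, since Dcx, Sp9 and Tubb3 had 0 UMIs in both cycle class sums. Dlx2, a homeobox gene of interneuron precursors, was higher (log2 1.63 ± 0.33, adjusted p = 0.000909, lost at 0.218 without replicate 2). Tubb3, a neuronal tubulin, had 20 and 7 UMIs in G0 or G1. Over all cells this is 2.99-fold above a floor of 3 counts over both libraries of the cycle classes. Tubb3 kept 0 UMIs in the cycle classes when cell numbers were made equal, since all cells of that side were kept. Its fold change in that setting, given below, is thus no measure of size. Its call was lost when either library was left out (adjusted p = 0.403 and 0.258).

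None of 12 microglia genes and none of 11 oligodendrocyte genes passed edgeR's test, with 0 and 1 of them at an unadjusted p below 0.05 and 0 of either with DESeq2. Pdgfrb, a mural cell gene that progenitors II also had at 37.5 and 35.5 CPM, was lower (log2 −2.43 ± 0.45, adjusted p = 0.000381, lost at 0.138 without replicate 2). The 4 markers of mature multiciliated cells summed to 153 and 99.3 CPM against 188 and 88.1 CPM.

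Within the cycle classes, S/G2 cells differed from S cells in mitotic genes. In a fit with early deuterosomal cells split by class, 13 of 14903 genes were higher in S/G2 (0.0872%) and 0 lower (0%) in edgeR, with 816 genes at an unadjusted p below 0.05. DESeq2 called 32 higher and 4 lower. The 13 genes were Hmmr, Ccnb2, Birc5, Cep55, Cenpf, Sgo2a, Aspm, Plk1, Pbk, Melk, Ccnb1, Ect2 and Cenpq. The list of G2 and M phases holds 5 of them and the kinetochore and cytokinesis list 4. Ccnb2 was at 58.5 and 49.8 CPM in S/G2 (20 and 38 UMIs) and 3.89 and 4.60 CPM in S (log2 3.51 ± 0.55, adjusted p = 0.00329). Cenpf was at 749 and 531 CPM in S/G2 and 112 and 124 CPM in S (log2 2.29 ± 0.31, adjusted p = 0.00436). Without the 1 cell of replicate 1 described with Mki67, Cenpf in S/G2 of that library was at 465 CPM (log2 1.99, adjusted p = 0.0204). No gene passed without replicate 1 or without replicate 2 (544 and 862 genes at an unadjusted p below 0.05, with 1 sum left per class), and without that 1 cell of replicate 1 the count was 7.

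No such step was detected in centriole genes. Deup1 was at 771 and 725 CPM in S, 755 and 764 in S/G2 and 640 and 442 in G2/M, against 304 and 273 in G0 and 362 and 425 in G1. Plk4 was at 318 and 356 CPM in S, 310 and 366 in S/G2 and 337 and 326 in G2/M, against 123 and 150 in G0 and 141 and 198 in G1. Their differences between S/G2 and S were −0.06 ± 0.18 and −0.07 ± 0.18 on the log2 scale (adjusted p = 1.00 for both). All 25 centriole genes failed the test between these classes, with 0 of them at an unadjusted p below 0.05 and 0 with DESeq2. Mki67 was at 254 and 126 CPM in S/G2, the first of which is 75.4 CPM without the 1 cell of replicate 1, against 9.33 and 36.1 CPM in S and 13.5 and 7.75 CPM in G2/M, and did not pass between S/G2 and S (log2 2.80 ± 0.78, adjusted p = 0.486).

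Other genes had further orders across the classes. Ccne1 was higher in both libraries in S (17.9 and 27.6 CPM) than in S/G2 (8.78 and 10.5 CPM, 3 and 8 UMIs). Id3 was at 21.0 and 11.5 CPM in S, at 120 and 66.8 CPM in S/G2 and at 151 and 111 CPM in G0. Neither passed between S/G2 and S (adjusted p = 0.851 and 0.421). The cells of class G2/M did not stand above S/G2 in mitotic genes, as with Ccnb1 at 60.6 and 15.5 CPM in G2/M and 135 and 99.6 CPM in S/G2. That class has 25 and 11 cells, and no test was made with it.

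**Figure D4:**
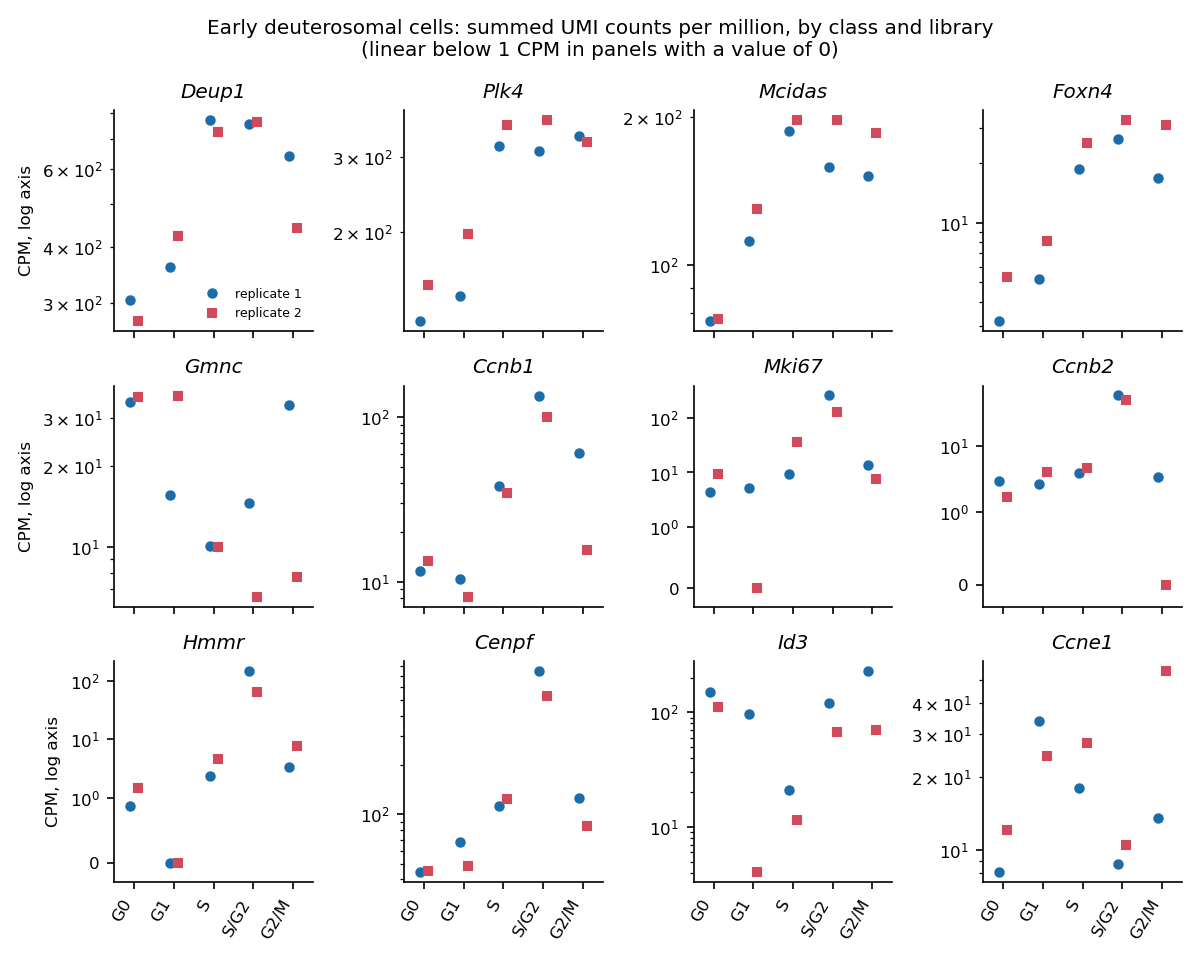
CPM of 12 genes in early deuterosomal cells of the G0, G1, S, S/G2 and G2/M classes, 1 point per library. Plk4 and Mcidas lie above G0 in S, S/G2 and G2/M in both libraries, and Deup1 falls to 442 CPM in G2/M of replicate 2, while Mki67, Ccnb2, Hmmr and Cenpf peak in S/G2.

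The same classes divide cycling progenitors, with 347 and 153 cells in the cycle classes and 173 and 86 in G0 or G1, which allows a test of whether the step between classes differs from that of early deuterosomal cells. This difference of differences was above 0 for 150 genes (0.992%) and below 0 for 154 (1.02%), in all 2.01% of genes. It uses the same early deuterosomal sums as the comparison above. The class mix differs between the populations. The cycle classes held 98 and 72 S and 22 and 38 S/G2 cells in early deuterosomal cells, but 124 and 48 S and 206 and 97 S/G2 cells in cycling progenitors. On the other side, G1 held 36 of 518 and 18 of 329 cells in early deuterosomal cells and 110 of 173 and 49 of 86 in cycling progenitors. The part of this mix in the differences below was not tested. Without the block by library 8 genes were above 0 and 28 below. Leaving out the early deuterosomal sums of replicate 1 gave 25 and 54, and leaving out those of replicate 2 gave 13 and 31. Of 54 G2 and M phase genes 10 had a smaller step in early deuterosomal cells, with a median difference of −0.67 on the log2 scale against −0.04 over all genes. Ccnb1 rose from 6.32 and 11.6 CPM in G0 or G1 to 257 and 305 CPM in the cycle classes of cycling progenitors, a larger step than in early deuterosomal cells by 2.83 (difference −2.83 ± 0.40, adjusted p = 0.000202). Cdc20 had a difference of −2.76 ± 0.29 (adjusted p = 2.52e-06), with 282 and 312 CPM against 15.5 and 15.0 CPM in cycling progenitors. For both genes early deuterosomal cells had more transcript in G0 or G1 and less in the cycle classes than cycling progenitors of the same class.

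Gas2l3, a cytoskeletal linker (−2.96 ± 0.38, adjusted p = 2.13e-05), and the mitotic kinase Aurka (−2.91 ± 0.45, adjusted p = 0.000332) had like differences. Psrc1 rose with the cycle classes in progenitors, from 8.78 and 8.84 to 64.9 and 70.0 CPM, and fell in early deuterosomal cells, from 6.85 and 8.79 to 2.60 and 1.37 CPM (difference −4.87 ± 0.51, adjusted p = 7.71e-07). Of 24 histone genes 6 had a smaller step as well, against 1.02% of all genes tested, H2afx (−0.97 ± 0.18, adjusted p = 0.00202) among them. Another was the linker histone Hist1h1b, with 680 and 1004 CPM against 106 and 182 CPM in cycling progenitors and 44.2 and 101 CPM against 37.5 and 64.3 CPM here (difference −2.05, adjusted p = 0.0477). The list had a median difference of −1.85 and includes genes with a few UMIs. Ube2s, a ubiquitin-conjugating enzyme of the APC/C, was higher in the cycle classes of both populations in both libraries and had a smaller step in early deuterosomal cells (−0.84, adjusted p = 0.00207).

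Named genes with a larger step in early deuterosomal cells included Rad51ap1, Brca1, Rangrf, Tmem97 and Atp5g1 (0.64, given further below). Rad51ap1 was at 81.0 and 87.3 CPM in the cycle classes and 71.7 and 66.0 CPM in G0 or G1 of cycling progenitors, so that its step there was small (difference 1.71 ± 0.30, adjusted p = 0.00199). This call was lost without replicate 2 (adjusted p = 0.0667) and in thinned cells (0.116). Brca1, of homologous recombination, had a difference of 1.60 ± 0.35 (adjusted p = 0.0121, lost at 0.197 and 0.234 when either library was left out). Rangrf, a factor of the Ran cycle of nuclear transport, was at 88.9 and 123 CPM against 45.8 and 41.8 CPM in early deuterosomal cells and at 20.1 and 17.3 CPM against 32.0 and 32.6 CPM in cycling progenitors. Its step thus had opposite signs in the 2 populations (difference 2.09 ± 0.26, adjusted p = 1.72e-05). Tmem97, a sterol-regulated membrane protein, had a difference of 1.5 ± 0.22 (adjusted p = 0.000102). Of 43 S phase genes 5 had a larger step in early deuterosomal cells, against 0.992% of all genes tested. These were Rad51ap1, Gins2, Dtl, Hells and Wdr76. Hells was at 108 and 127 CPM in the cycle classes and 177 and 224 CPM in G0 or G1 of cycling progenitors, so that it lay lower in the cycle classes in both libraries.

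No multiciliation regulator differed in its step at the adjusted threshold, with 1 of 13 at an unadjusted p below 0.05 and 0 with DESeq2. Of 25 centriole genes 2 had a larger step in early deuterosomal cells, Spice1 (1.24) and Pcm1 (0.60), against 0.992% of all genes tested. The step of Plk4 in cycling progenitors went from 50.6 and 53.1 CPM to 95.3 and 106 CPM, and its difference did not pass (0.38 ± 0.26, adjusted p = 0.552).

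**Figure D5:**
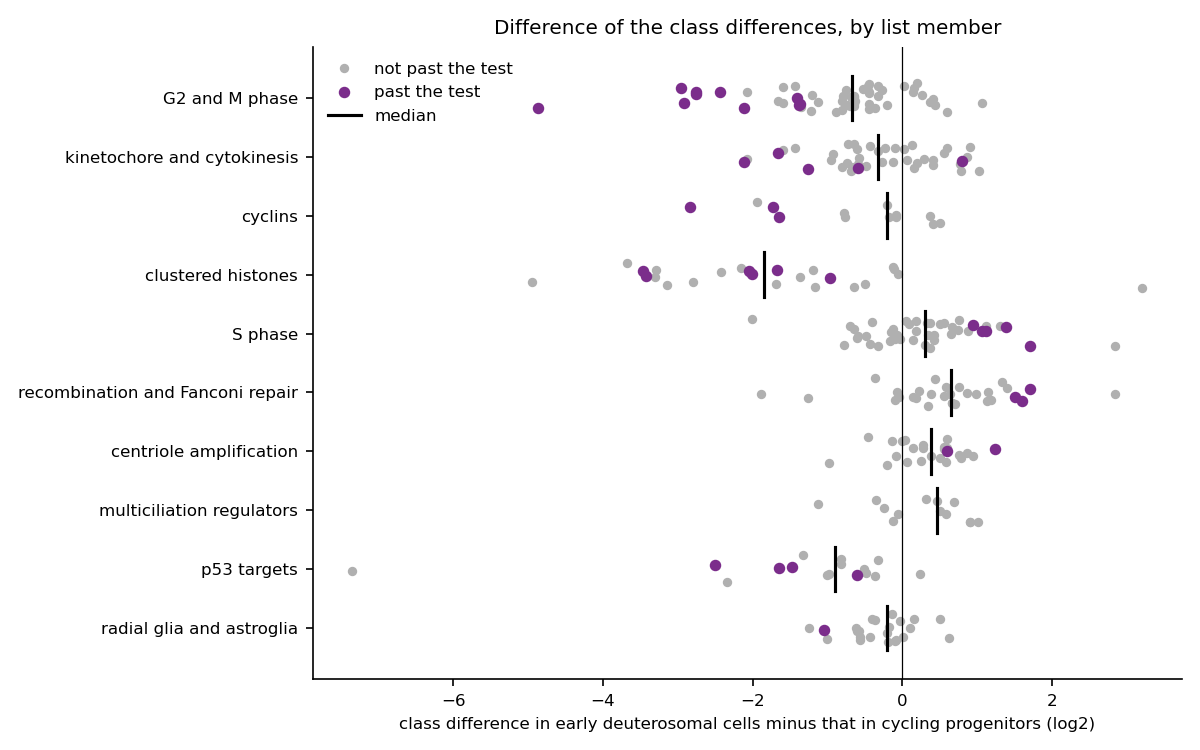
Difference of the log2 step between classes, early deuterosomal cells minus cycling progenitors, for each member of 10 gene lists (1 point per gene, 0 where the steps are equal). G2 and M phase and histone genes lie mostly below 0 (medians −0.67 and −1.85) and recombination genes mostly above (median 0.65).

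Against mid deuterosomal cells, the next stage, 1451 genes were higher in the cycle classes of early deuterosomal cells (9.60%) and 2043 lower (13.5%). This comparison shares the cycle class sums with those above. Axoneme genes were lower for 39 of 50 members, with a median log2 fold change of −1.09, and 29 of the 54 on the list of G2 and M phases too, with a median of −0.77. Ccnb1 (−1.82 ± 0.18, adjusted p = 7.26e-08), Ccnb2 (−2.42 ± 0.25, adjusted p = 1.68e-07), Plk1 (−1.61 ± 0.18, adjusted p = 1.99e-07) and Ccna1 (−2.52 ± 0.25, adjusted p = 1.69e-06) were among the lower genes. Of 25 centriole genes 13 were lower. For Plk4 the difference from mid deuterosomal cells was −0.04 ± 0.15, with an adjusted p of 0.896.

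S phase and glial genes were higher than at the next stage. Of 43 S phase genes 22 were higher, and of 23 radial glia and astroglia genes 12, where 9.60% of all genes were higher. The medians were 0.71 and 0.83 against −0.06 over all genes. Ccne1 was at 15.6 and 23.2 CPM against 3.02 and 3.36 CPM in mid deuterosomal cells (log2 2.54 ± 0.36, adjusted p = 5.16e-06). Mcidas was higher than at the next stage too (log2 0.43 ± 0.13, adjusted p = 0.0165). Among genes of at least 5 in mean log2 CPM, the largest differences above 0 were Igfbp5, a binding protein of insulin-like growth factors (348 and 343 CPM against 26.7 and 22.4 CPM, log2 3.75 ± 0.56, adjusted p = 0.000201), Stmn2 (2.78 ± 0.70, lost at adjusted p = 0.367 without replicate 2), the imprinted gene Mest (2.75 ± 0.27) and Gpx8 (2.65 ± 0.35). By the same limit the largest below 0 were Crip3 (−6.23 ± 0.51, adjusted p = 6.85e-07), the ciliary genes Ccdc153 (−3.83 ± 0.53) and Tctex1d4 (−3.29 ± 0.58), and BC051019 (−3.39 ± 0.30). Crip3 was at 5.72 and 0.456 CPM in the cycle classes of early deuterosomal cells and at 274 and 157 CPM in mid deuterosomal cells. Leaving out early deuterosomal cells of replicate 1 gave 669 higher and 1055 lower genes, and leaving out those of replicate 2 gave 565 and 1019.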

How the data were processed

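Single-cell RNA-seq was made from 2 libraries, 1 per culture. The authors deposited raw counts of unique molecules (UMI counts) per gene and cell, with a cell metadata table that names populations and cell cycle classes. Per the submitters' processing notes, Cell Ranger 3 and 5.0.1 and the build mm10 were used. The sources used here do not tie a version to a library. All cells of the metadata table were kept. The handling of doublets is not stated there. Counts were summed per library and population, with early deuterosomal cells and cycling progenitors split into cycle classes (S, S/G2, G2/M) and G0 or G1. Sums of under 20 cells in either library were left out. Library totals were 173510950 and 70611931 UMIs in 12028 and 4373 cells.

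The 30 sums were fitted together in edgeR 4.0.16 (R 4.3.3) with TMM factors, the library as a block, 14 residual degrees of freedom and 15120 genes after edgeR's filter on low counts. Quasi-likelihood tests used Benjamini-Hochberg adjustment over all genes and a threshold of 0.05. Errors of log2 fold changes are standard errors of this fit, which pools the spread over populations. The library is the block because sums of 1 library come from 1 culture. Deviations of the 2 sides followed the library, with r = 0.77 across 5163 genes, which are not independent replicates. The S/G2 and S classes were compared in a fit of 32 sums. Tests on simulated counts recovered 4%, 42%, 76% and 98% of genes changed by 1.25, 1.5, 2 and 4-fold among 14298 genes for the first comparison, with 1 false call. The simulation gave each gene the same mean share in every sum, 1 dispersion for all genes and no effect of library. The 200 changed genes were drawn from those above a minimum of expected counts. These rates thus describe the simulated counts and not the real ones. Intervals of shares are exact Clopper-Pearson, from scipy 1.17.1, and cover counting error only. To compare shares of cells with a UMI, cells were thinned to 5000 UMIs. Gene positions came from GENCODE M21, where 32158 of 32287 identifiers matched (99.6%), and promoters from RefSeq.

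Members and gene lists were chosen with earlier results of these data known. Named genes were the 8 largest changes each way past the test among genes whose log2 CPM averaged 5 or more, leaving out predicted, mitochondrial and ribosomal protein genes. Up to 2 extreme members each way of each list, the cyclins and a set of cell cycle and multiciliation genes were added, and the 4 largest each way were taken for other comparisons. Sass6, Stil, Glul, Hist1h1b, Hells, Wdr76, Gins2, Dtl, Ube2s, Spice1, Pcm1, Aurkb, Phlda3, Bax, Notch2, Rbpj, the motif-bearing Ccdc15, Cep152 and Cntrl, and the remaining genes that were higher in S/G2 than in S were named after their values were seen. Alternatives were DESeq2 1.42.0, RLE factors, other filters, thinned cells, equal cell numbers, single classes, smaller fits, no block and leaving out each library. UMI levels were not compared between genes.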

Additional observations from a re-analysis of the deposited data

Results flagged for a closer look

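The step between the cycle classes and G0 or G1 was tested for a difference between early deuterosomal cells and cycling progenitors. Of the 90 genes named for the first comparison 15 differed, against 2.01% of all genes tested. The named genes were chosen partly by the same early deuterosomal sums. Values are from edgeR, adjusted over all genes, as the log2 difference of the steps, early deuterosomal minus cycling progenitors. Among mitotic genes the difference was −2.83 for Ccnb1, −2.76 for Cdc20, −1.66 for Plk1 (adjusted p = 0.0229) and −4.87 for Psrc1. It was −0.97 for the histone variant H2afx and −0.52 for the cohesin subunit Smc3 (adjusted p = 0.0306). Genes lower in the cycle classes of early deuterosomal cells with a negative difference were Amotl1 (−1.38, adjusted p = 0.0101), Notch1 (−0.88, adjusted p = 0.0437), the p53 targets Ccng1 (−1.65, adjusted p = 0.000368) and Sesn2 (−2.50, adjusted p = 0.0257), and Pdgfrb (−2.52, adjusted p = 0.00964). Ccng2, which did not pass the test between the classes of early deuterosomal cells (adjusted p = 0.189), had a difference of −1.73 (adjusted p = 0.0251).

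For Tubb3 the fitted difference was −9.83 (adjusted p = 0.0108). With 0 UMIs in the cycle classes of early deuterosomal cells this value depends on the prior count and is no measure of size. Larger steps in early deuterosomal cells were found for Rad51ap1 (1.71) and Atp5g1, a subunit of the mitochondrial ATP synthase (0.64, adjusted p = 0.0375).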

How the results depend on the processing

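Counts of genes moved with several choices, and their causes were not tested. For the cycle classes against G0 or G1 (1532 higher, 846 lower), class S/G2 alone gave 698 and 379, thinned cells 913 and 458, and the fit with no replicate block 559 and 225. Equal cell numbers gave 470 lower genes, the fit of lineage and progenitors alone 1651 (chosen after seeing the data) and the 4 sums alone 1871. Leaving out a library gave 393 to 573 higher and 78 to 167 lower genes. With no low count filter 1267 were higher and 1191 lower, a share of higher genes of 51.5% against 64.4%. The median log2 fold change over all genes was −0.06 with RLE factors.

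For the difference from cycling progenitors (150 and 154), DESeq2 gave 283 and 281, thinned cells 45 and 74, no replicate block 8 and 28, no low count filter 392 below 0, and leaving out a library 13 to 25 and 31 to 54. Against mid deuterosomal cells (1451 and 2043), thinned cells gave 864 and 1247, no replicate block 654 and 856, and leaving out a library 565 to 669 and 1019 to 1055. Between S/G2 and S (13 higher), DESeq2 gave 32 higher and 4 lower, thinned cells 6 and 1, no low count filter 54 and 14, and leaving out a library 0. Leaving out the cell with most Mki67 UMIs, chosen after seeing the data, gave 7.

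Fitted signs turned in 6 genes, 5 of which had not passed the test. Tubb3, which had passed, had a log2 fold change of 0.01 with equal cell numbers. With 0 UMIs in the cycle classes there, this value is no measure of size or direction. Ccne1 was at −0.23 with S/G2 alone. Cdkn1a was at −0.75 with S/G2 alone, −0.09 with equal cell numbers, −0.01 with no low count filter, −0.02 to 0.09 when a library was left out and −0.02 without the cell with most Mki67 UMIs. Fbxo5 was at 0.32 with S/G2 alone, 0.11 in thinned cells, 0.98 with equal cell numbers and −0.62 to 0.52 when a library was left out. Ccdc78 was at 0.01 in thinned cells and −0.77 to 0.26 when a library was left out, and Fbxo43 at −0.10 to 1.95 when a library was left out. G1 against G0 and G1 alone as the reference were not run, since replicate 2 had 18 G1 cells and 20 were required. When a library was left out, the remaining sum was assumed to vary like the other populations.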

Other observations

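Condensins, cohesin and chromatin genes of dividing cells, not described above, had 10 higher and 1 lower of 22 in the cycle classes of early deuterosomal cells. Their median log2 fold change was 0.87. Over all genes tested 10.1% were higher and 5.60% lower. The lower gene was Smc3, a cohesin subunit, at 139 and 147 CPM against 198 and 203 CPM, and its call was lost when either library was left out (adjusted p = 0.153 and 0.138). Without replicate 1 the list had 8 higher genes and without replicate 2 it had 5. Of 24 genes of mitochondrial respiration 2 were higher, a share near the 10.1% of all genes, Atp5g1 (log2 0.55) and Uqcrq (log2 0.29), with a median of 0.12.

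Of 21 E2F, Rb and DREAM factors 6 were higher and 1 lower, where 10.1% of all genes were higher and 5.60% lower. E2f8, an atypical E2F, was at 23.9 and 46.5 CPM against 11.1 and 13.7 CPM (log2 1.56 ± 0.32, adjusted p = 0.00190 in edgeR, lost at 0.247 without replicate 2). Foxm1, a factor of mitotic genes, was at 5.72 and 3.19 CPM against 1.23 and 0.781 CPM (log2 2.11 ± 0.63, adjusted p = 0.0202), and its call was lost without replicate 1 (0.322), without replicate 2 (0.159) and without the 1 cell with most Mki67 UMIs (0.0630). E2f3 was lower (log2 −1.59 ± 0.54, adjusted p = 0.0435, lost at 0.237 and 0.357 when either library was left out). Without replicate 1 the list had 1 higher gene and without replicate 2 it had 0, and without that cell 3.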
